A study of Mus musculus with 6 samples.

Results

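The expression of 7 genes for zymogen granule proteins other than digestive enzymes, and for protease inhibitors of the exocrine pancreas, was compared between islets of diabetic db/db mice and their db/m littermates. The genes were taken by symbol from the deposited table of 44713 genes, and all 7 were present: Sycn, Zg16, Gp2, Cuzd1, Dmbt1, Spink3 and Serpini2. Whole-transcriptome libraries from rRNA-depleted total RNA had been sequenced from 3 mice of each genotype, all male, 10 weeks old and on a normal diet. The db/db mice carry the Leprdb mutation of the leptin receptor (given as Lepr-/- in the labels). The db/m animals were non-diabetic littermates, and the labels give their genotype as wild type. The paper names them db/m and does not say that they lack the mutation. The methods of the study name the strain as BKS.Cg-Dock7m+/+Leprdb/Nju and the labels name it as C57BL/6. The islets had been released with collagenase, enriched on a Histopaque gradient and lysed without culture.

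Zymogen granules are the storage vesicles of pancreatic acinar cells, the exocrine cells that surround the islets. They hold inactive digestive enzymes, and fuse with the apical membrane when cholecystokinin or acetylcholine stimulates the cell. Besides the enzymes, the granules contain membrane glycoproteins, lectins and small proteins that take part in packing and release, as well as inhibitors that restrain prematurely active trypsin. None of the 7 genes is a defining gene of endocrine islet cells.

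Sycn was the gene of the set that differed most between the groups, at 2.52-fold higher in db/db islets (95% interval 1.15 to 5.49), and it was the only one of the 7 whose 3 db/db mice all lay above the 3 db/m mice. Among all tested genes, 8.53% also had groups that did not overlap, with db/db higher. Sycn did not pass the threshold over all genes in edgeR (adjusted p = 0.262). Zg16, Cuzd1 and Serpini2 had similar fold changes of 1.48 to 1.65 with overlapping groups. Spink3, Gp2 and Dmbt1 were between 1.08 and 1.28, also with overlapping groups. Relative to the reads on digestive enzyme genes in the same library, the db/db mean of Sycn was 1.47 times the db/m mean. Those of Zg16, Cuzd1 and Serpini2 were 0.936 to 0.997 of it, and those of Gp2, Spink3 and Dmbt1 were 0.684 to 0.724 of it. Genes in general were lower on this scale. With library size set to enzyme reads, the median log2 fold change of all tested genes was -0.85, against -0.55 for Gp2, -0.47 for Spink3 and -0.55 for Dmbt1.

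The libraries came from preparations in which acinar RNA was abundant. The paper reports insulin staining of isolated islets as its check that they were free of acinar cells, and found most cells positive. Between 54.5% and 79.3% of the counted reads fell on 35 digestive enzyme genes, with 72.4% to 79.3% in db/db mice and 54.5% to 70.3% in db/m mice. The 15 β-cell marker genes took 0.196% to 0.697% of the reads with db/db and 0.865% to 4.55% with db/m, and Ins1 and Ins2 alone took 0.121% to 3.75% in the 6 libraries. Of these 15 genes 5 were lower in db/db islets at an adjusted p under 0.05 in edgeR, and the 4 with the smallest p were Sytl4, Slc30a8, Slc2a2 and Nkx6-1 (log2 fold changes of -3.61, -4.49, -4.33 and -3.37). Total counts lay between 15641797 and 20614531 per mouse. The scaling factors of the TMM method (trimmed mean of M values) ranged from 0.605 in db/db replicate 1 to 1.75 in db/m replicate 1, and these libraries had the largest and the smallest share of enzyme reads. Lepr had 4, 10 and 68 reads in db/db replicates 1 to 3, beside 37, 25 and 8 in db/m replicates 1 to 3 (log2 fold change 0.75 ± 0.92, SE; edgeR adjusted p = 0.732). The db mutation changes the splicing of Lepr, so that a count over the whole gene does not check the genotype.

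The 7 genes together took 5.36%, 5.15% and 5.91% of the reads of the db/db mice, against 3.92%, 7.25% and 5.32% for db/m. The means were 5.47% ± 0.393 (SD, n = 3) and 5.50% ± 1.67 (SD, n = 3), and neither group lay apart from the other. In such bulk samples, more acinar cells and more RNA per acinar cell cannot be told apart.

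Of the 7 genes, 5 lie on chromosome 7 of GRCm38, and Dmbt1 and Cuzd1 are neighbours there with 186925 bases between them. No other gene of the RefSeq annotation overlaps any of the 7, and none of their 50-base stretches occurs in a transcript of another gene in GENCODE M21. In Dmbt1, 25.7% of the stretches occur more than once within its own longest transcript, which the sources used here do not say how the counting treated. Promoters from RefSeq (GRCm38.p6, 250 bases before to 50 after the start) were used for 4 of the genes: Sycn, Gp2, Cuzd1 and Serpini2. The promoters of Zg16, Dmbt1 and Spink3 were not used here. The stretch from 40 to 11 bases before the start is shown because the genes share a tissue but not the direction of their values against enzyme reads. Capitals mark a TATA on the coding strand, the core of a TATA box.
Sycn: ctcaTATAttctctcttcccatgggtcata
Gp2: agtgtcagTATAaaggagtcaggccgtagg
Serpini2: agctgcttcaTATAagagggttttccagta
Cuzd1: gtcaaggctcaaattcagtttcaaggccag
These windows are chr7:28540845-28540874 on the forward strand for Sycn, and chr7:119459283-119459312, chr3:75270089-75270118 and chr7:131322303-131322332 on the reverse strand for Gp2, Serpini2 and Cuzd1. A TATA was present in 3 of the 4, against 6.52% of 32851 promoters in the same window. The window was chosen after these promoters had been read, so this count describes them and cannot serve as a test.

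Letters of sites bound by acinar transcription factors were searched on both strands of the 4 promoters. The E-box CACCTG, part of the site of PTF1, occurred only in Serpini2, beginning 109 bases before its start, whereas 20.2% of all promoters hold it. The match is shown in capitals within chr3:75270170-75270199 (reverse strand).
Serpini2: cagcacagtgcaCACCTGctatggttgtgg
TTTCCCA, the part of that site bound by RBPJ and RBPJL, and AAGGTCA, a site of nuclear receptors such as NR5A2, had no match in the 4 promoters and are held by 8.06% and 4.72% of all promoters. These are matches of letters and not measured sites.

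Sycn (chr7:28540885-28542210, forward strand, 2 exons) encodes syncollin, a small protein on the inner face of the granule membrane that is needed for efficient exocytosis. Its expression level was 21333, 12773 and 12684 TMM-normalized CPM (counts relative to library size) in db/db replicates 1, 2 and 3, and 3725, 7205 and 7670.0 in db/m replicates 1, 2 and 3. The lowest db/db mouse thus lay above the highest db/m mouse, as it did for 8.53% of all tested genes. The means were 15597 ± 4968 CPM (SD, n = 3) and 6200.2 ± 2156 CPM (SD, n = 3). The quasi-likelihood test of edgeR put the log2 fold change at 1.33 ± 0.50 (SE), with an unadjusted p = 0.0254 and an adjusted p = 0.262 over all tested genes. By DESeq2 the adjusted p was 0.00497, and over the 15 alternatives it lay between 0.00497 and 0.890. The log2 fold change was positive in all 15, with 0.78 for library size alone, 0.56 for library size set to enzyme reads, and 0.16 for the acinar score, the mean log2 level of the enzyme genes, as a covariate. As a share of reads, Sycn took 1.24% ± 0.0670 (SD, n = 3) in db/db and 0.720% ± 0.0624 (SD, n = 3) in db/m libraries. An exact two-sided permutation of the mice gave p = 0.1, below which 3 mice against 3 cannot go.

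Zg16 (chr7:127050156-127052675, reverse strand, 4 exons) encodes a lectin of the granule matrix that binds proteoglycans. The db/db mice had levels of 21748, 11905 and 13200 CPM, against 4472, 11611 and 12398 CPM in their db/m littermates. Replicate 1 was the highest db/db mouse and the lowest db/m mouse, and the other 4 mice lay close together, from 11611 to 13200 CPM. The edgeR fit put the log2 fold change at 0.72 ± 0.55 (SE; adjusted p = 0.567), and it was 0.41 without db/db replicate 1 and 0.40 without db/m replicate 1. The means of 15618 ± 5348 and 9494 ± 4366 CPM (SD, n = 3 each) stood in a ratio of 1.65 (95% interval 0.7003 to 3.86).

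Gp2 (chr7:119442537-119459272, reverse strand, 11 exons) encodes the GPI-anchored major glycoprotein of the granule membrane. Levels of the db/db mice were 14276, 6020.1 and 9074 CPM, against 3999, 12368 and 8999.9 CPM in their db/m littermates. The groups interleaved over their whole range. The edgeR fit put the log2 fold change at 0.21 ± 0.55 (SE; adjusted p = 0.883), with -0.16 without db/db replicate 1, -0.11 without db/m replicate 1 and -0.33 with library size alone. With means of 9790.1 ± 4175 and 8456 ± 4211 CPM (SD, n = 3 each), the fold of 1.16 had a 95% interval of 0.486 to 2.76.

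Cuzd1 (chr7:131308554-131322292, reverse strand, 9 exons) encodes a granule protein with CUB and zona pellucida-like domains, the latter shared with Gp2. Its promoter was the one of the 4 shown without a TATA in the window. The db/db mice had levels of 3566, 1593 and 2237 CPM, against 637, 1785 and 2188 CPM in their db/m littermates. As for Zg16, db/db replicate 1 was the highest and db/m replicate 1 the lowest mouse, and the other 4 mice interleaved. The edgeR fit put the log2 fold change at 0.68 ± 0.51 (SE; adjusted p = 0.564), with 0.32 without db/db replicate 1, 0.34 without db/m replicate 1 and 1.04 without db/m replicate 3. The fold between the means of 2465 ± 1006 and 1537 ± 805 CPM (SD, n = 3 each) was 1.60, with 0.717 to 3.59 as its 95% interval.

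Dmbt1 (chr7:131032057-131121628, forward strand, 48 exons) encodes a large glycoprotein with repeated scavenger receptor cysteine-rich domains, from which muclin of the mouse granule membrane is made. It took the largest share of reads of the 7 genes in each mouse, between 1.58% and 3.66%. Levels of the db/db mice were 26222, 18786 and 26158 CPM, against 9346, 34458 and 22279 CPM in their db/m littermates. Both the lowest and the highest mouse were db/m mice. The coefficient of variation was 57.0% in db/m and 18.0% in db/db mice. The edgeR fit put the log2 fold change at 0.11 ± 0.59 (SE; adjusted p = 0.947), and -0.24 without db/m replicate 1. The means were 23722 ± 4275 and 22028 ± 12558 CPM (SD, n = 3 each), a fold of 1.08 (95% interval 0.429 to 2.70).

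**Figure D1:**
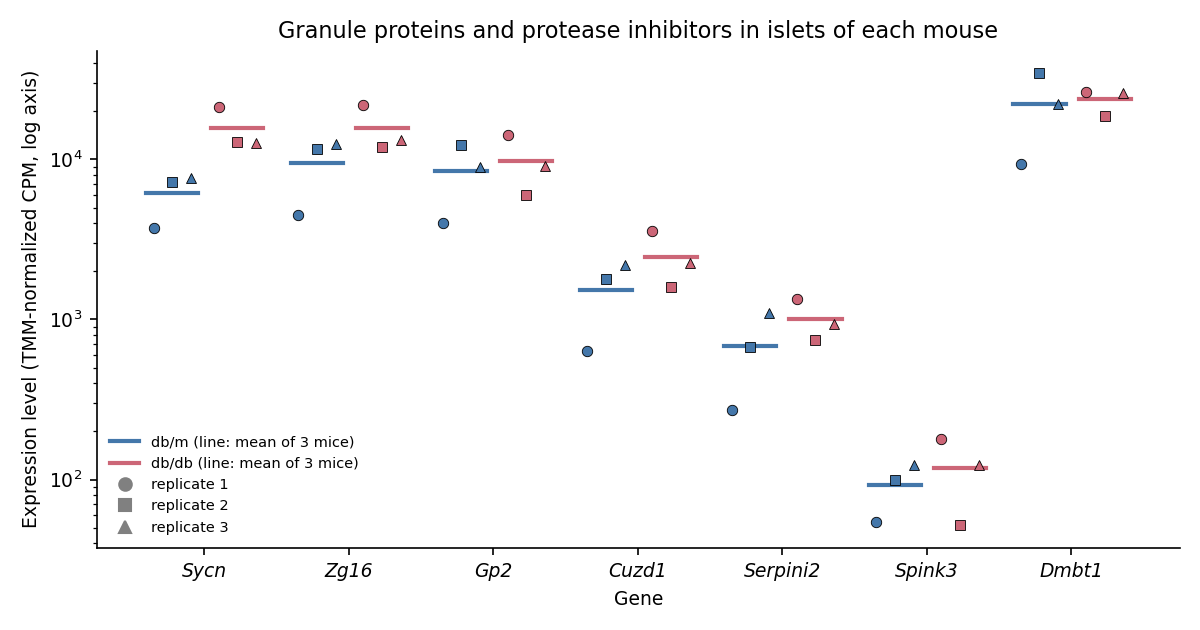
Expression level (TMM-normalized CPM, log axis) of the 7 genes in each mouse, with 3 mice per genotype, symbols for the replicate number and lines for the group means. Sycn is the gene whose groups do not overlap, as in 8.53% of all tested genes with db/db higher. Of the 7 genes, 6 have their lowest level in db/m replicate 1.

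The protease inhibitors were the least abundant genes of the set. Serpini2 (chr3:75242357-75270078, reverse strand, 9 exons) encodes a serpin made in the exocrine pancreas. The db/db mice had levels of 1350, 744 and 931 CPM, against 272, 669.8 and 1098 CPM in their db/m littermates, with a log2 fold change of 0.57 ± 0.49 (SE; edgeR adjusted p = 0.617). It was 0.30 without db/db replicate 1, 0.22 without db/m replicate 1 and 1.11 without db/m replicate 3. The db/m mice spanned a wider range than the db/db mice and overlapped with them. Its means were 1008 ± 310.3 and 679.9 ± 413 CPM (SD, n = 3 each), and the fold of 1.48 had a 95% interval of 0.686 to 3.20.

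Spink3 (symbol Spink1 in RefSeq, 43728069 to 43737237 on the reverse strand of chromosome 18, 4 exons) encodes the secreted trypsin inhibitor of acinar cells, the mouse counterpart of human SPINK1. It had the fewest reads of the set, with 2237, 867 and 1821 per db/db mouse and 1472, 1718 and 2277 per db/m mouse. Levels of the db/db mice were 179.6, 51.8 and 122 CPM, against 54.0, 100.1 and 123.3 CPM in their db/m littermates. The lowest and the highest mouse were both db/db mice, and the groups overlapped. The edgeR fit put the log2 fold change at 0.35 ± 0.46 (SE; adjusted p = 0.752), with -0.08 without db/db replicate 1 and -0.24 with library size alone. For Spink3 the 95% Clopper-Pearson interval of its share of reads was at most 6.72% of the share to either side, and for the other genes at most 2.28%. These intervals cover counting error alone. The means of 118 ± 64.0 and 92.5 ± 35.2 CPM (SD, n = 3 each) gave a fold of 1.28 (95% interval 0.625 to 2.61).

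In the fit across 12760 tested genes, edgeR called 0 of the 7 genes at an adjusted p under 0.05, against 0.133% of the tested genes higher and 0.486% lower in db/db islets. At an unadjusted p under 0.05 the count was 1, Sycn, where 5.04% of all tested genes were higher in db/db islets. Sycn was not under this threshold without db/db replicate 1 (edgeR, unadjusted p = 0.0880) or without db/db replicate 3 (0.0507). With library size set to enzyme reads 2 of the 7 were under it, Sycn above 0 and Gp2 below 0. With the acinar score as a covariate 6 of the 7 were under it, each of them below 0, and Sycn was not. The share of all tested genes under it in these fits is not given here. DESeq2 gave 1 of the 7 at an adjusted p under 0.05, also Sycn. It called more genes than edgeR in general, with 121 of 14798 tested genes higher and 558 lower in db/db islets. Groups that did not overlap, with db/db higher, were found for 1 of the 7 genes and for 8.53% of the tested genes. The 7 log2 fold changes lay between 0.11 and 1.33 with a median of 0.57, beside a median of -0.000934 over all tested genes and 0.75 over the 35 digestive enzyme genes. Without 1 mouse the median of the 7 was 0.30 (db/db replicate 1 left out), 0.22 (db/m replicate 1) and 0.97 (db/m replicate 3), and 5 of the 7 values were positive without either replicate 1. With library size in place of TMM factors, 4 of the 7 values were positive with a median of 0.10, and the all-gene median shifted to -0.59. With library size set to enzyme reads 1 of the 7, Sycn, was positive, and the median of all genes was -0.85. With the acinar score as a covariate Sycn was again the 1 positive value, the median of the 7 was -1.10 and that of all genes -0.05. The 35 digestive enzyme genes, from which the score is made, also had a negative median in that fit, of -0.64. Over the 15 alternatives the log2 fold change was positive in 13 for Zg16 (-0.79 to 0.97), Cuzd1 (-1.08 to 1.04) and Serpini2 (-1.10 to 1.11), in 11 for Spink3 (-1.19 to 0.71) and Dmbt1 (-1.16 to 0.62), and in 10 for Gp2 (-1.39 to 0.63). Sycn had the highest value of the 7 in each of the 15 alternatives, and was positive in all of them.

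**Figure D2:**
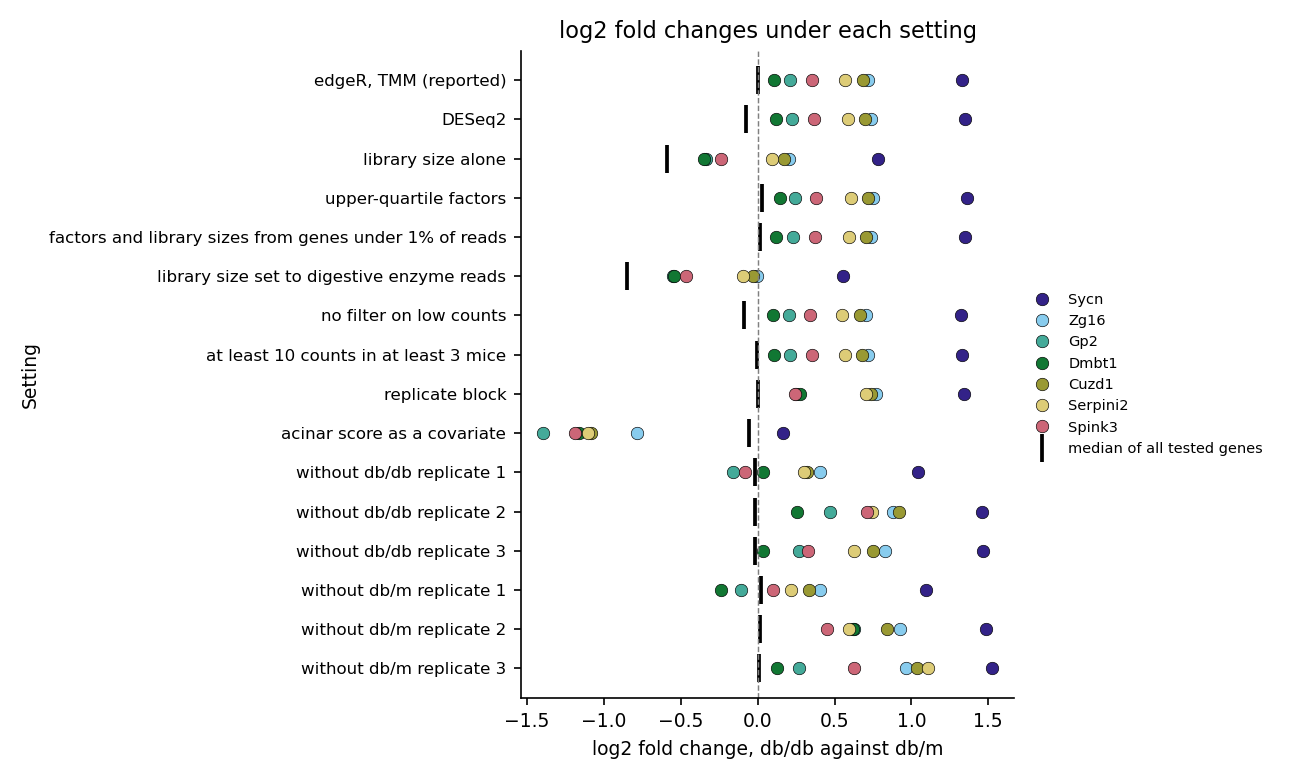
Log2 fold change (db/db against db/m) of the 7 genes under the reported fit and 15 alternatives, with the median of all tested genes as a black bar. Sycn is the rightmost point in each row, from 0.16 to 1.52, while every other gene lies on either side of 0 over the settings.

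To compare the genes with the other cargo of the granule without scaling whole libraries, the reads on each gene were counted per 1000 reads on the 35 digestive enzyme genes of the same mouse. For Sycn the values were 16.3, 17.5 and 16.1 in db/db replicates 1 to 3 and 11.9, 11.4 and 10.6 in db/m replicates 1 to 3. The means were 16.6 ± 0.776 (SD, n = 3) and 11.3 ± 0.659 (SD, n = 3), a ratio of 1.47 between groups that did not overlap. This spread of 4.68% and 5.84% within the groups was far smaller than that of its CPM, at 31.9% and 34.8%. As a share of all counted reads, without TMM factors, the spread of Sycn was also small, at 5.40% in db/db and 8.67% in db/m mice. For Zg16 the values were 16.6, 16.3 and 16.7 in db/db replicates 1 to 3 and 14.3, 18.4 and 17.1 in db/m replicates 1 to 3, so that the group means of 16.5 ± 0.209 and 16.6 ± 2.09 (SD, n = 3 each) were nearly equal. In the db/db mice Zg16 thus kept a coefficient of variation of 1.26% against the enzymes, the smallest of the 7 genes.

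For Gp2 there were 10.9, 8.24 and 11.5 reads per 1000 enzyme reads in the db/db group and 12.8, 19.6 and 12.4 in the db/m group. All 3 db/db values were below the db/m values, as for 31.3% of all tested genes on this scale. The ratio of the means was 0.684. For Spink3 the values were 0.137, 0.0710 and 0.155 in db/db replicates 1 to 3 and 0.173, 0.158 and 0.170 in db/m replicates 1 to 3, also without overlap, with a ratio of 0.724. The gap for Spink3, 0.155 against 0.158, was smaller than the counting error of its reads, and the difference of -0.0460 became -0.0210 without db/db replicate 2. For Dmbt1 the values were 19.98, 25.7 and 33.1 in db/db replicates 1 to 3 and 29.9, 54.5 and 30.8 in db/m replicates 1 to 3, which overlapped at a ratio of 0.685, and the difference of -12.1 became -4.03 without db/m replicate 2. Cuzd1 (2.58 ± 0.347 against 2.63 ± 0.521, SD, n = 3 each) and Serpini2 (1.08 ± 0.0896 against 1.15 ± 0.333, SD, n = 3 each) differed by less than the spread between mice.

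For Sycn, Gp2 and Spink3 exact two-sided permutation of the mice gave p = 0.1, the design's smallest value, before any adjustment. Groups without overlap on this scale were less common upwards than downwards. Among all tested genes 0.478% had db/db values all higher, beside 1 of the 7 genes, and 31.3% had them all lower, beside 2 of the 7. The count downwards was thus near the share of all genes. Among the 35 enzyme genes themselves, 11 had all db/db values higher, 4 had all lower and 20 overlapped. Without the trypsinogen genes in the denominator, the difference for Sycn was 6.21 reads per 1000 in place of 5.31. Without any 1 of the mice it lay between 4.86 and 5.61. The difference for Gp2 was -4.71, and -2.40 without db/m replicate 2.

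**Figure D3:**
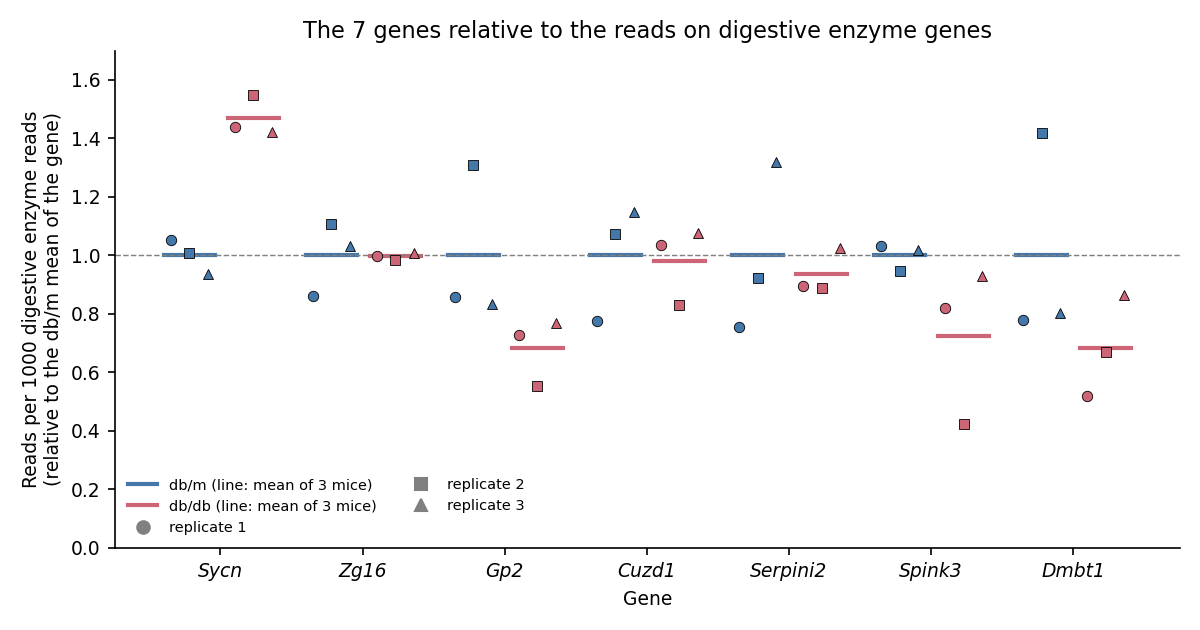
Reads on each of the 7 genes per 1000 reads on digestive enzyme genes, divided by the db/m mean of that gene, with 3 mice per genotype and lines for group means. The Sycn mean lies at 1.47, Zg16 near 1, and Gp2, Spink3 and Dmbt1 at 0.684, 0.724 and 0.685.

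The make-up of the reads on the 7 genes was compared in the same mice. Sycn supplied 24.1%, 24.6% and 19.7% of these reads in db/db replicates 1 to 3 and 16.6%, 10.6% and 14.01% in db/m replicates 1 to 3. Dmbt1 supplied 29.6%, 36.2% and 40.6% in db/db replicates 1 to 3 and 41.5%, 50.5% and 40.7% in db/m replicates 1 to 3. Gp2 supplied 16.1%, 11.6% and 14.1% against 17.8%, 18.1% and 16.4%. Each of the 3 genes had groups that did not overlap, higher for Sycn and lower for Dmbt1 and Gp2 (p = 0.1 for each by an exact two-sided permutation of the mice). The nearest Dmbt1 values of the groups were 40.6% and 40.7%, and its groups overlapped in CPM, as a share of counted reads and against enzyme reads. Zg16, Cuzd1, Spink3 and Serpini2 overlapped on this scale. How often genes of other sets lie apart in this way was not tested, so the count of 3 cannot be weighed. These shares sum to 100%, so that 1 gene cannot gain without loss in another. The lower shares of Dmbt1 and Gp2 are thus not separate from the higher share of Sycn. The ratio of the reads on Gp2 to those on Sycn, which needs no other gene, was 0.669, 0.471 and 0.715 with db/db and 1.07, 1.72 and 1.17 with db/m, so that its db/db mean was 0.468 of the db/m mean. It was 1 of 21 pairs, of which 7 had groups that did not overlap. The pairs share their genes, and the share among pairs of other genes is not given here, so this count cannot be weighed. Gp2 and Sycn already lay apart in opposite directions against enzyme reads, so this ratio is not separate evidence.

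**Figure D4:**
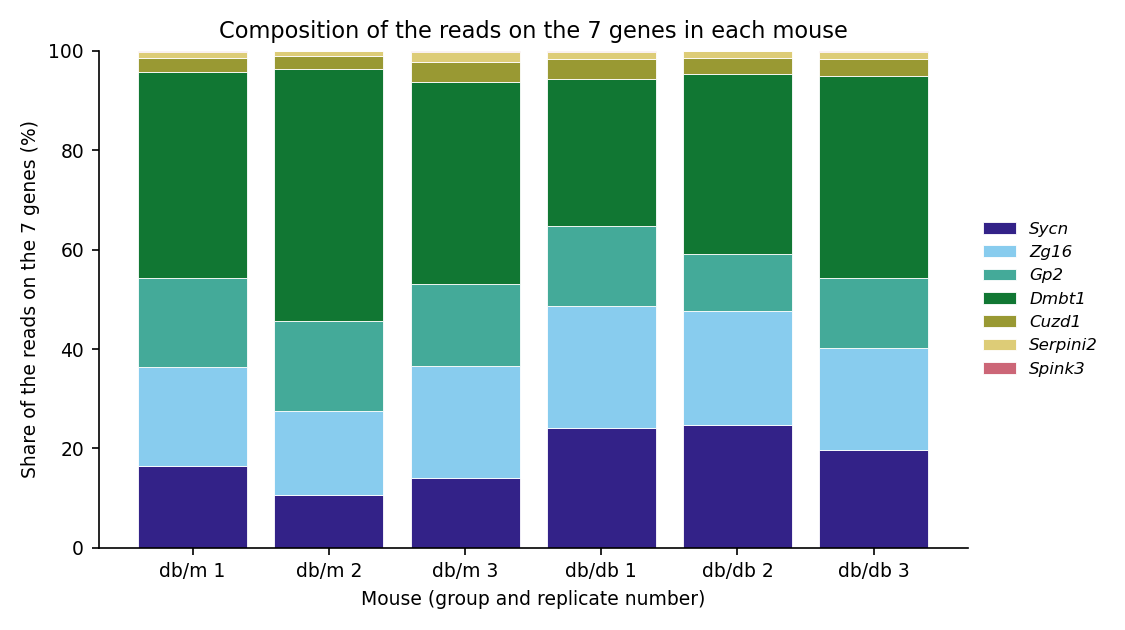
Share of each gene (%) in the reads on the 7 genes, one bar per mouse with db/m at left and db/db at right. The Sycn segment is 10.6% to 16.6% in db/m and 19.7% to 24.6% in db/db mice, and Spink3 at under 0.3% is barely visible.

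Levels of different genes were compared per kilobase of the longest curated RefSeq transcript. Sycn and Zg16 were the highest, with 28001 ± 8919 and 22900 ± 7842 CPM per kilobase in db/db mice (SD, n = 3), and 11131 ± 3870 and 13920 ± 6402 in db/m mice (SD, n = 3). Their order differed between the mice, with Sycn above Zg16 in 4 of 6 libraries. Below them followed Gp2 (4932 ± 2103 and 4260 ± 2121), Dmbt1 (3776 ± 680 and 3506 ± 1999), Cuzd1 (1093 ± 446 and 681 ± 357), Serpini2 (708 ± 218 and 477 ± 290.1) and Spink3 (279.5 ± 152 and 219 ± 83.5), each for db/db and db/m mice (SD, n = 3). Within each library this lower order was the same in 6 of 6 mice, although Gp2 and Dmbt1 differed by as little as 1.01-fold in 1 of them, and their group means by less than the SD of Gp2. Dmbt1, which had the most reads per gene, came after Sycn, Zg16 and Gp2 per kilobase, as its transcript of 6283 bases is far longer than the 557 bases of Sycn.

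The genes most like each of the 7 over the 6 mice were named by the root mean square difference of their centred log2(CPM + 1) levels, among 11558 genes. The 6 points share their libraries and their scaling, and the likeness is a description. For Zg16 these were Cpb1 (0.0524), a carboxypeptidase of the granule, Gm6472 (0.0624) and Pnliprp2 (0.0786), a pancreatic lipase, where the median over all genes was 0.725. For Cuzd1 they were Cpb1 (0.105), Tc2n (0.116) and Zg16 (0.140), and for Serpini2 the amylase gene Amy2a1 (0.116), Slc16a7 (0.138) and Tc2n (0.143). Zg16, Cuzd1 and Serpini2 thus ran close to one another and to enzyme genes. The genes nearest to Gp2 were Lins (0.0701), Adk (0.0975) and Naca (0.105), to Dmbt1 Pik3c2g (0.0892), Fam110c (0.151) and Ptprk (0.153), and to Spink3 Rps24-ps3 (0.0903), Kbtbd8 (0.131) and Utp23 (0.141). Sycn had no neighbour nearer than Rpl10-ps3 (0.143), followed by C77370 (0.150) and Fgfrl1 (0.159), and its distance from the other 6 genes was 0.315 to 0.673. No digestive enzyme was among the 3 genes nearest to Gp2, Dmbt1, Spink3 or Sycn.

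Other genes of the secretory pathway of acinar cells were compared in the same fit. Of the 35 digestive enzyme genes 6 were higher in db/db islets at an adjusted p under 0.05 and 0 lower, and the 6 were genes of the trypsinogen family. Among them Gm10334, Gm5771, Gm2663 and Prss3 had the smallest p-values, with log2 fold changes of 7.57, 6.04, 4.15 and 3.50 (adjusted p = 2.8e-04, 0.00242, 0.00449 and 0.0143 from edgeR). Reads of these close copies may be shared among them. Of 30 tested genes for granule exocytosis and secretagogue receptors, 0 passed the adjusted threshold in edgeR, 3 had an unadjusted p under 0.05, and the median log2 fold change was 0.11. Among these was Rab27a, a granule GTPase (log2 fold change -0.92, adjusted p = 0.106 from edgeR). Of 10 transcription factors of acinar cells, 0 passed and 1, Xbp1, had an unadjusted p under 0.05 (log2 fold change 0.76, adjusted p = 0.265 from edgeR), followed by Rbpjl (0.68, adjusted p = 0.359).

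Dmbt1, Gp2 and Zg16 are also made outside acinar cells, in ducts or in intestinal epithelium, so markers of these cells were counted. The 15 duct genes took 0.0535% to 0.0641% of the reads with db/db and 0.0770% to 0.110% in db/m mice, and 0 of them passed the adjusted threshold in edgeR. The smallest unadjusted p-values belonged to Krt19 (log2 fold change 1.29, adjusted p = 0.232 from edgeR) and Spp1 (1.24, adjusted p = 0.234). Of the 15 genes 3 were under 0.05 unadjusted, and the third, Krt7, had a negative log2 fold change (-1.34, adjusted p = 0.269 from edgeR). The 11 goblet and intestinal genes took 0.000742% to 0.00152% in db/db and 0.00152% to 0.00466% in db/m mice, with 2 of them at 0 in all mice. Of 9 tested genes of other endocrine cells 0 passed, and their share was 0.0255% to 0.0882% in db/db and 0.0304% to 0.344% in db/m mice. Of the 9 leukocyte and 13 stromal and endothelial genes tested, 0 passed as well. Leukocyte genes were at most 0.00895% and stromal and endothelial genes at most 0.0186% of the reads in any mouse. Enzyme reads had a larger and β-cell reads a smaller share in each db/db mouse than in any db/m mouse, and beyond the values against enzyme reads and with the acinar score given here, their part in the differences of the 7 genes was not tested.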

How the data were processed

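RNA-seq was analysed in islets of 3 db/db and 3 db/m mice. The authors filtered adaptors, N bases and low-quality reads and mapped to mm10 with TopHat (the submitters' processing notes name HISAT2 2.0.4), and the deposited file holds their raw read counts, 1 row per gene symbol and 1 column per mouse. The counting program, annotation and strand setting are not given in the sources used here. Columns were matched to mice by title.

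The quasi-likelihood F-test of edgeR 4.0.16 (R 4.3.3; default filterByExpr, library sizes recomputed after it, TMM factors) was applied to 12760 genes. A gene was called at a Benjamini-Hochberg adjusted p under 0.05. The SE of a log2 fold change is its size over the root of the F statistic. The pipeline was tested on simulated data. Values per mouse were compared by exact permutation tests. DESeq2 1.42.0 and 14 further settings were run as alternatives. Named genes were the 7 genes, the genes nearest to each, and in each companion list up to 4 genes per direction with an adjusted p under 0.05, otherwise the 2 with the smallest unadjusted p. The result of 1 gene under this rule is not reported here. The 7 genes and the lists were chosen with earlier results of these data known, and the TATA window after the promoters were read. Annotation was RefSeq GRCm38.p6 and GENCODE M21. The labels number the libraries as separate mice, and p-values measure the spread between these libraries. Libraries of 1 group were distinct beyond sampling of reads (chi-square of 26.5 to 147 per degree of freedom). Clopper-Pearson intervals (95%) cover counting error alone.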

Additional observations from a re-analysis of the deposited data

How the results depend on the processing

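Each of the 15 alternatives left the 7 genes on the same side of the adjusted threshold, except that DESeq2 called Sycn (log2 fold change 1.35), so that 1 of the 7 genes was called there in place of 0. The number of all genes called, 79, changed to 679 with DESeq2, 888 without a filter, 52 with upper-quartile factors, 50 with library size set to enzyme reads, 23 with the acinar score as a covariate, 21 with library size alone and 16 with the replicate block, and to 333 without db/m replicate 3 and 10 to 52 without any 1 of the other mice. Same-numbered mice did not deviate together (correlations across genes of -0.51, -0.15 and -0.32), so the numbers were not taken as pairs; with the replicate block the log2 fold change of Sycn was 1.34 (adjusted p = 0.710 from edgeR). With TMM-adjusted library sizes, the difference in the share of reads, as db/db minus db/m in percentage points, became 1.98 for the 7 genes together, 0.133 for Gp2, 0.612 for Zg16, 0.940 for Sycn, 0.0929 for Cuzd1, 0.00255 for Spink3, 0.0328 for Serpini2 and 0.169 for Dmbt1. This turned the sign for the 7 together (-0.0241 as reported), Gp2 (-0.198), Spink3 (-0.00160) and Dmbt1 (-0.535, and 0.0540 without db/m replicate 2). The adjusted values divide each share by the TMM factor of its library, 0.605 to 0.994 in db/db and 0.972 to 1.75 in db/m mice. They are thus no longer shares of the counted reads, and the turn of sign follows from this division. With enzyme reads lacking trypsinogens as the reference, the difference for Sycn was 6.21 reads per 1000. Counting error was largest for Spink3, with 867 to 2277 reads per mouse. The limit that a count of 0 allows, taken as 3 counts, was 0.146 to 0.192 CPM per library.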

Other observations

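Relatives of the 7 genes were mostly near or below the limit of detection. Of 12 genes of the SPINK family in the table, Spink3 was the only one that passed the filter, 9 had 0 reads in all mice, and Spink4 and Spink5 had 5 and 1 reads in all. Of 52 serpin genes 12 were tested, and 0 of them had an adjusted p under 0.05 in edgeR, with 4 at an unadjusted p under 0.05. The smallest p-values belonged to Serpina7, which encodes thyroxine-binding globulin, at 8.20 ± 5.52 CPM in db/db and 1.502 ± 1.13 in db/m mice (SD, n = 3 each; log2 fold change 2.46, edgeR adjusted p = 0.122), and to Serpinb1a, an inhibitor of neutrophil proteases, at 82.7 ± 25.9 and 40.4 ± 14.3 CPM (SD, n = 3 each; 1.03, adjusted p = 0.219 from edgeR). For Serpini1, neuroserpin of the same clade as Serpini2, the log2 fold change was -0.03 ± 0.30 (SE; edgeR adjusted p = 0.970). Of 3 tested relatives by domain 0 passed; Ssc5d, with scavenger receptor cysteine-rich domains as in Dmbt1, had a log2 fold change of 0.44 (edgeR adjusted p = 0.792), and Umod, which shares the zona pellucida domain of Gp2, had 4.80 ± 0.852 and 4.17 ± 5.17 CPM (SD, n = 3 each).

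Of 14 tested genes for other extracellular protease inhibitors, 0 passed the adjusted threshold in edgeR and 5 had an unadjusted p under 0.05. The testicans Spock1 and Spock2, proteoglycans with a protease inhibitor domain, had log2 fold changes of -2.94 (adjusted p = 0.0621 from edgeR) and -2.18 (adjusted p = 0.107 from edgeR).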
